A study of Mus musculus with 4 samples.

Results

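Wnt and beta-catenin pathway genes were examined in leukemia-initiating cells (LICs) of a murine acute myeloid leukemia (AML) model, as 10 named genes of the 27179 in the expression table. They are the co-receptor Lrp6, the beta-catenin destruction complex genes Apc, Axin1, Axin2, Gsk3a and Gsk3b, beta-catenin itself (Ctnnb1), and the DNA-binding partners Tcf7, Tcf7l2 and Lef1. The rule names the genes and uses no measured value, but the choice was made with earlier results of these data known. All 10 were found by NCBI gene number. Of these, 7 passed the filter for the comparison (a mean of at least 0.5 FPKM over the libraries, fragments per kilobase of gene, scaled to the reads mapped in the library), and Axin2, Tcf7l2 and Lef1 did not.

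RNA-sequencing was performed on 4 libraries, 2 labelled wild type (WT) and 2 labelled CD274-/- (CD274-null), CD274 being a ligand of the PD-1 receptor. WT and CD274-null stand throughout for the libraries labelled so. All were labelled as LSC sorted from bone marrow of C57BL/6 mice at an age of 6 weeks. In both groups the leukemia came from lineage-negative fetal liver cells that carried a retroviral MLL-AF9 fusion oncogene with a YFP tag and had been transplanted into irradiated C57BL/6 recipients, and the labelled genotype is that of the donor cells. The round of transplantation is not given in the sources used here. The labels do not say whether the libraries of a group came from separate mice, so p-values measure only the spread between these libraries.

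Without a Wnt signal, beta-catenin is bound in the cytoplasm by Apc and Axin, phosphorylated by casein kinase 1 and GSK3, and then ubiquitinated and degraded. A Wnt ligand bound to a Frizzled receptor and to Lrp5 or Lrp6 recruits Dishevelled and Axin to the membrane, beta-catenin accumulates, enters the nucleus and activates genes together with TCF/LEF factors. Axin2, Lef1, Tcf7, Rnf43 and Nkd1 are commonly used target genes of this pathway. In MLL-rearranged leukemia, leukemia stem cells are known to need beta-catenin. RNA levels do not show the amount, phosphorylation or localization of beta-catenin protein.

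Recovered reads on genes summed to between 8285063 and 10968851 per library. Cd274, the gene named by the genotype label, was examined first, and its FPKM of 2.80 and 0.945 in the WT libraries overlapped 1.43 and 2.29 in the CD274-null libraries, so it did not separate the labels and every direction below rests on the labels alone. A value over the whole gene cannot show whether reads come from outside a deleted part, and the deleted exons are not given in the sources used here. The sorting markers were present in every library, with Itgam (Mac-1) between 100.2 and 174 FPKM and Kit between 6.59 and 19.5, as were Hoxa9 (71.3 to 75.8) and Meis1 (35.6 to 44.6), homeobox genes typical of MLL leukemia. Of 10 listed sorting and myeloid markers, 3 lay higher and 3 lower in both CD274-null libraries, against 25.6% and 21.8% of all tested genes. Mpo had 444 and 403 FPKM in WT against 1427 and 925 in CD274-null (adjusted p = 0.251 from limma). Ptprc had 72.8 and 86.8 against 53.3 and 53.0. Immunoglobulin genes summed to 43.6 and 45.8 FPKM in WT and to 948 and 844 in CD274-null, the Y chromosome genes Ddx3y, Eif2s3y, Kdm5d and Uty to 86.0 and 66.2 against 0.0460 and 29.4, Xist to 2.57 and 51.1 against 107 and 68.7, and erythroid markers to 55.7 in WT replicate 2 against at most 4.85 elsewhere. Their part in the values below was not tested, and in bulk RNA fewer cells of a type cannot be told apart from less RNA per cell.

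The promoter of Ctnnb1, the most abundant member, is shown beside those of Axin2, the least abundant member of the destruction complex, and Gsk3a, the only member whose window held the searched TCF/LEF motif. Each is written 5′ to 3′ along the gene, from 250 bases before to 50 bases after a RefSeq start site of GRCm38.p6, with motif letters in capitals. Ctnnb1 lies on the plus strand at chr9:120933150-120933449, Axin2 on the plus strand at chr11:108920099-108920398 and Gsk3a on the minus strand at chr7:25237802-25238101.
Ctnnb1: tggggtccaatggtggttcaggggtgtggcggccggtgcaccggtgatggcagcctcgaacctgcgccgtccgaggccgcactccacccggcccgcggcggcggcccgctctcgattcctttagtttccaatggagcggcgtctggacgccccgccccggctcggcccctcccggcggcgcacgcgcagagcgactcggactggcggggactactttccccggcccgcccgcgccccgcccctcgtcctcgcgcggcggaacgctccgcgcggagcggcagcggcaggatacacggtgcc
Axin2: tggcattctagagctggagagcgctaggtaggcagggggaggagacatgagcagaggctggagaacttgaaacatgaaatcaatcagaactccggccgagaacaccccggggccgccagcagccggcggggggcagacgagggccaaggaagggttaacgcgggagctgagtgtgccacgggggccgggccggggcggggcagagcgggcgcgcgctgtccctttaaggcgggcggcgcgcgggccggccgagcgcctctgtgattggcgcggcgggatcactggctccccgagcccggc
Gsk3a: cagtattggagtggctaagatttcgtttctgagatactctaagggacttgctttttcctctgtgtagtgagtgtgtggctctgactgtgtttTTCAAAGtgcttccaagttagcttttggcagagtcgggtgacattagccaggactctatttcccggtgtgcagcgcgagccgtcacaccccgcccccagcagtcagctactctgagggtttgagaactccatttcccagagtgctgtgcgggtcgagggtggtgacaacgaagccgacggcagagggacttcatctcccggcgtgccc

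The motif was searched as CTTTGAA or CTTTGAT on both strands. It was in 1 of the 13 windows of the 7 members with a promoter sequence, Ctnnb1, Axin2, Gsk3a, Gsk3b, Lef1, Tcf7 and Tcf7l2, against 8.65% of all 32851 windows of this length. The match in Gsk3a was CTTTGAA on the opposite strand, read as TTCAAAG along the gene, with its first base at position -158 from the start site. It is a match of letters and not a measured binding site, and the missing letters in the Axin2 window say nothing about TCF/LEF factors elsewhere in that gene. The GC content of the windows shown was 75.3% for Ctnnb1, 70% for Axin2 and 54.3% for Gsk3a.

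The members covered a wide range of levels in the LICs. Ctnnb1, Gsk3a and Axin1 were the 3 most abundant members in every library, in this order, and Gsk3b was the fourth. Lrp6 and Apc changed places between the groups, at 9.39 and 9.71 against 8.99 and 7.71 FPKM in WT and at 7.27 and 5.94 against 8.24 and 7.21 in CD274-null. The TCF/LEF factors and Axin2 were the 4 least abundant in every library.

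**Figure D1:**
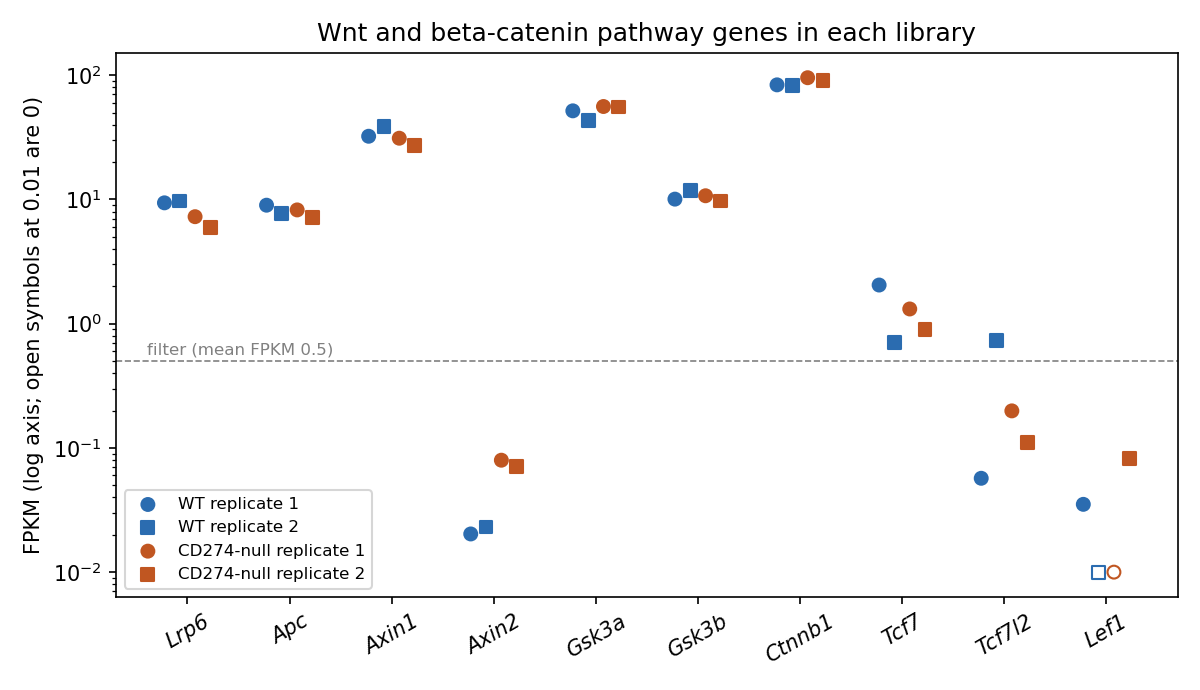
FPKM (log axis) of the 10 pathway genes in each of the 4 libraries, with WT in blue and CD274-null in orange, replicate 1 as circles and replicate 2 as squares; open symbols are values of 0 and the dashed line is the filter. Ctnnb1, Gsk3a and Axin1 lie above 27 FPKM in every library, while Axin2 and Lef1 stay below 0.1.

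Ctnnb1, which encodes beta-catenin (NCBI gene 12387, chromosome 9, 120933400 to 120960507), reached 83.7 and 83.3 FPKM in WT against 95.5 and 90.5 in CD274-null. Both CD274-null values were above both WT values, and the gene stood at the 93.8th to 94.7th percentile of the genes above 0 in each library. The values rest on at least 1020 reads per library. The mean was 83.5 ± 0.280 (SD, n = 2) in WT and 93.0 ± 3.56 (SD, n = 2) in CD274-null. The log2 fold change was 0.15 (standard error 0.20, 95% interval -0.32 to 0.63, adjusted p = 0.755 from limma, Benjamini-Hochberg), so the difference did not pass the test and the interval still holds a change of 1.5-fold upwards. Exons of Ulk4 on the opposite strand overlap 14.6% of the exonic bases of Ctnnb1, and the strand setting of the counting is not given in the sources used here.

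Among the scaffolds of the destruction complex, Axin1 was clearly expressed and Axin2 was barely detected. Axin1, the constitutive scaffold (NCBI gene 12005, chromosome 17, 26131217 to 26195811), had 32.3 and 38.7 FPKM in WT against 31.1 and 27.2 in CD274-null, from 1411, 1488, 1040 and 1022 reads. The CD274-null libraries lay below the WT libraries, with replicate 1 of each group close together. The limma estimate was a log2 fold change of -0.28 (standard error 0.22, 95% interval -0.81 to 0.26, adjusted p = 0.597 from limma), and -0.44 (adjusted p = 0.478) with a correction for GC content, which also did not pass the test.

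Axin2, the scaffold that is itself induced by beta-catenin (NCBI gene 12006, chromosome 11, 108917828 to 108950783), had 0.0203 and 0.0231 FPKM in WT against 0.0796 and 0.0707 in CD274-null. The recovered reads were 1 in each WT library and 3 in each CD274-null library. Corrected for depth, the ratio of CD274-null to WT reads was 3.47 with an exact binomial 95% interval from 0.621 to 35.2, so no difference was detectable at this depth. This interval covers counting error only.

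Apc, the large scaffold that binds beta-catenin and Axin (NCBI gene 11789, chromosome 18, 34220297 to 34322190), had 8.99 and 7.71 FPKM in WT against 8.24 and 7.21 in CD274-null, from at least 894 reads per library. The groups overlapped, and the gene stood near the middle of the expressed genes, at the 50.7th to 55.5th percentile. On the log2 scale the change was -0.10 (standard error 0.27, 95% interval -0.75 to 0.54, adjusted p = 0.890 from limma) and changed sign to 0.03 with the correction for GC content.

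Both GSK3 kinases were expressed, Gsk3a several times higher per length than Gsk3b in every library. Gsk3a (NCBI gene 606496, chromosome 7, 25228258 to 25237851) had 51.7 and 43.2 FPKM in WT against 56.01 and 55.5 in CD274-null. Both CD274-null values were higher, by little over WT replicate 1. The log2 fold change was 0.24 (standard error 0.21, 95% interval -0.27 to 0.74, adjusted p = 0.635 from limma) and 0.04 with the correction for GC content, the longest Gsk3a transcript being at 59.8% GC. Exons of the antisense gene 9130221H12Rik overlap 28.3% of the exonic bases of Gsk3a. Gsk3b (NCBI gene 56637, chromosome 16, 38089001 to 38246084) had 10.1 and 11.8 FPKM in WT against 10.7 and 9.71 in CD274-null, so that the groups overlapped. Its log2 fold change was -0.09 (standard error 0.25, 95% interval -0.70 to 0.52, adjusted p = 0.903 from limma) and 0.01 with the correction for GC content. The ratio of Gsk3a to Gsk3b FPKM within a library was 5.14 and 3.67 in WT against 5.23 and 5.72 in CD274-null, with WT replicate 2 lowest and WT replicate 1 next to the CD274-null libraries.

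Lrp6, the co-receptor for Wnt ligands (NCBI gene 16974, chromosome 6, 134446476 to 134566913), had the largest estimate among the 7 tested members. It had 9.39 and 9.71 FPKM in WT against 7.27 and 5.94 in CD274-null, from at least 277 reads per library, with no overlap of the groups. The mean was 9.55 ± 0.223 (SD, n = 2) in WT and 6.60 ± 0.939 (SD, n = 2) in CD274-null, 69.1% of the WT mean. The limma estimate was a log2 fold change of -0.51 (standard error 0.27, 95% interval -1.15 to 0.14, adjusted p = 0.447 from limma), which did not pass the test. With each library left out in turn it ran from -0.64 to -0.37. Lrp5, the other co-receptor, had 12.2 and 14.8 FPKM in WT against 17.1 and 13.8 in CD274-null (log2 fold change 0.19, adjusted p = 0.771 from limma). The ratio of Lrp5 to Lrp6 FPKM was 1.29 and 1.53 in WT against 2.35 and 2.33 in CD274-null, and this pair was picked with the values known, so no test was made of it.

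**Figure D2:**
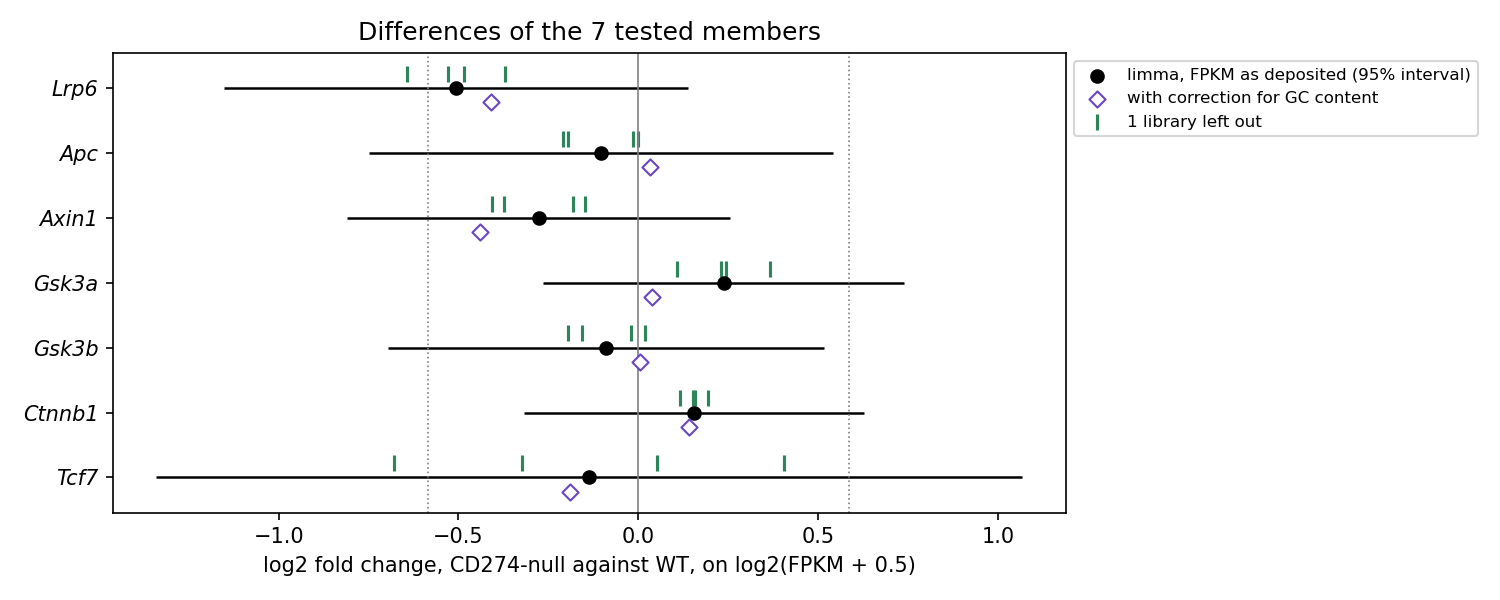
Log2 fold change of CD274-null against WT on log2(FPKM + 0.5) for the 7 tested members, with black points and lines for the limma estimate and its 95% interval, open diamonds for the estimate corrected for GC content, green ticks for 1 library left out and dotted lines at a fold change of 1.5. Every interval includes 0, and Lrp6 lies lowest at -0.51.

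Of the DNA-binding factors, Tcf7 alone had a mean above the filter among the members. Tcf7, which encodes TCF1 (NCBI gene 21414, chromosome 11, 52246527 to 52283383), had 2.05 and 0.702 FPKM in WT against 1.31 and 0.897 in CD274-null, from 53, 16, 26 and 20 reads. The WT libraries enclosed the CD274-null libraries. On the log2 scale the change was -0.14 (standard error 0.50, 95% interval -1.34 to 1.07, adjusted p = 0.925 from limma), and it turned positive without WT replicate 1 (0.41) or without CD274-null replicate 2 (0.05). Tcf7 and Lef1 are abundant in T cells. Of 14 T cell markers, 4 were tested and none was a candidate, where 3.63% of all tested genes were. The summed FPKM of the 14 was 6.04 and 6.58 in WT against 8.12 and 4.38 in CD274-null. Of the 14 markers, 5 lay higher in both CD274-null libraries than in both WT libraries, 3 lay lower and the others overlapped or were listed at 0. Of all tested genes, 25.6% lay higher and 21.8% lower in this way, and most of the 14 markers were under the filter. Lck had 0.188 and 0.299 against 1.13 and 0.481 FPKM, Cd3g a listed 0 and 0.192 against 0.884 and 0.294, and Cd247 2.97 and 2.94 against 1.596 and 1.1997. Cd3e, which defines T cells, lay between 0.0602 and 0.157 FPKM, from at most 2 recovered reads per library.

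Tcf7l2, which encodes TCF4 (NCBI gene 21416, chromosome 19, 55741797 to 55933659), had 0.0570 and 0.733 FPKM in WT against 0.199 and 0.110 in CD274-null. Of its 50 recovered reads, 34 came from WT replicate 2, and the other libraries held 3, 8 and 5, so the groups overlapped. WT replicate 2 is also the library with the erythroid RNA given above, whose part in this value was not tested. Lef1 (NCBI gene 16842, chromosome 3, 131110297 to 131224357) had 0.0351 FPKM in WT replicate 1 and 0.0816 in CD274-null replicate 2, and was listed at 0 in the other libraries. Its recovered reads, 1 and 2, are lower bounds. Tcf7l1, the fourth member of this family and no member of the list of 10, had 2.27 and 1.02 FPKM in WT against 1.02 and 0.433 in CD274-null (log2 fold change -0.79, adjusted p = 0.517 from limma). No member of the TCF/LEF family exceeded 2.27 FPKM in any library.

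Over the 7 tested members, 0 were candidates (unadjusted p under 0.01 and fold change above 1.5, the thresholds of the study), where 3.63% of the 13230 tested genes were (2.39% higher and 1.24% lower in CD274-null). In limma, 0 had an unadjusted p under 0.05 and 0 an adjusted p under 0.05, against 13.7% and 0.0756% of the tested genes. In voom on the recovered reads 0 were candidates as well. The groups did not overlap for 4 of the 7, Ctnnb1 and Gsk3a (CD274-null higher) and Axin1 and Lrp6 (CD274-null lower), where 47.3% of all tested genes have groups that do not overlap (25.6% higher and 21.8% lower in CD274-null). The median log2 fold change was -0.10 over the 7 and 0.01 over all tested genes.

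The levels of the wider pathway differed sharply by role. A list of 116 Wnt pathway genes, the members included, was grouped into 13 roles, and 61 were tested. Of 23 ligands and R-spondins, 2 were tested and 7 were listed at 0 in all libraries, and the highest mean was 1.33 FPKM for Rspo1. Wnt8a, the other ligand tested, had 0.285 FPKM and a listed 0 in WT against 0.521 and 1.45 in CD274-null and passed the filter through the CD274-null libraries alone, so its test is not given. Of 11 secreted inhibitors, 1 was tested (Notum, a Wnt deacylase, 0.342 and 0.632 against 0.448 and 1.24 FPKM), and of 18 receptors and co-receptors, 6 were. Porcn, which acylates Wnt proteins, was under the filter, while Wls, the carrier of Wnt proteins in the secretory pathway, had 41.1 and 49.3 FPKM in WT against 37.8 and 36.2 in CD274-null. By contrast all 10 genes of the ubiquitin and tankyrase group, all 10 nuclear repressors and all 5 casein kinases outside the complex were tested. Tle5, a Groucho-related repressor, reached 202 and 217 FPKM in WT against 225 and 285 in CD274-null (log2 fold change 0.27, adjusted p = 0.629 from limma). Csnk1a1, the casein kinase of the destruction complex, had 101 and 123 FPKM in WT against 90.4 and 68.1 in CD274-null (log2 fold change -0.50, adjusted p = 0.411 from limma). Skp1 and Cul1, subunits of the ubiquitin ligase that marks beta-catenin, lay at 79.4 and 85.2 against 89.0 and 108 FPKM and at 61.9 and 66.5 against 49.5 and 46.2 FPKM, in the same order of groups, with log2 fold changes of 0.26 and -0.42. Ctnna1, alpha-catenin, which binds beta-catenin at adherens junctions, lay at 37.7 and 36.04 against 31.1 and 33.8 FPKM, and Ctbp1, a nuclear corepressor, at 129 and 112 against 97.1 and 97.5 FPKM. None of these 4 genes was a candidate. The groups overlapped for the casein kinases Csnk1g2 (55.4 to 58.8 FPKM) and Csnk1d (34.7 to 52.0), for the acetyltransferase Ep300 (24.997 to 28.6) and for the Dickkopf receptor Kremen1 (3.49 to 6.30).

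**Figure D3:**
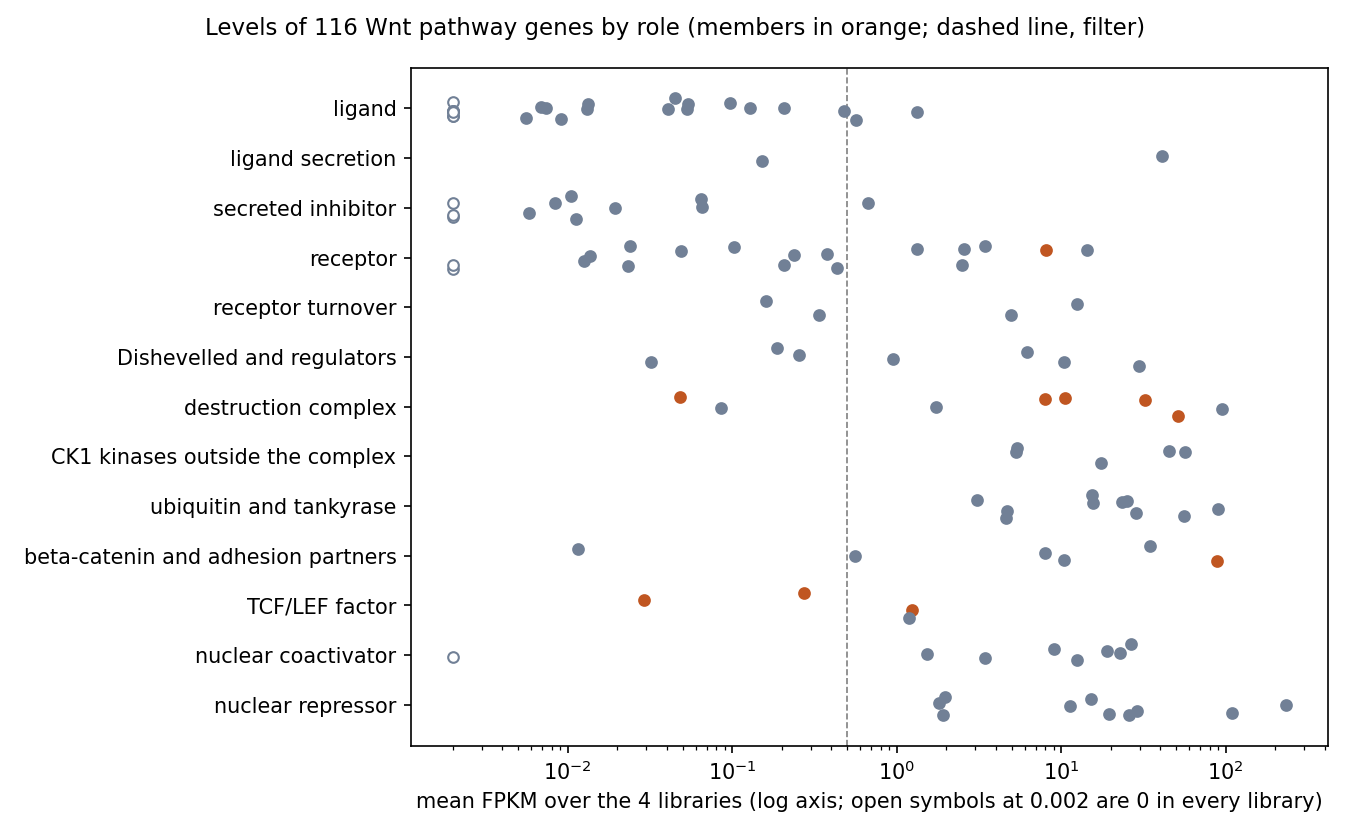
Mean FPKM over the 4 libraries (log axis) of the 116 Wnt pathway genes in rows by role, members in orange, other genes in grey, open symbols for genes at 0 in every library and a dashed line at the filter of 0.5. Of 23 ligands 2 lie above the line, while all 10 nuclear repressors do.

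In the wider list 3 of 61 tested genes were candidates (3.63% of all tested genes were), and none of the 3 was a member. By this unadjusted rule Rnf43 and Pygo2 rose and Tnks fell in the libraries labelled CD274-null. None had an adjusted p under 0.05 from limma, and 8 of the 61 had an unadjusted p under 0.05, where 13.7% of all tested genes did. These 8 include Dact3, which passed the filter through the CD274-null libraries alone. The median log2 fold change of the 61 was -0.04. The 54 tested genes that are not members had 24 positive and 30 negative estimates.

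Rnf43, a membrane ubiquitin ligase that removes Frizzled receptors and is a target of beta-catenin (NCBI gene 207742, chromosome 11, 87663087 to 87735539), had 3.77 and 7.31 FPKM in WT against 16.7 and 22.2 in CD274-null, from 188, 321, 637 and 955 reads. Each CD274-null library was more than 2 times the higher WT library. The log2 fold change was 1.78 (unadjusted p = 0.00247 and adjusted p = 0.251 from limma, with a standard error of 0.36) and 1.63 with the correction for GC content, where it remained a candidate. It was no candidate without CD274-null replicate 1 (1.98) or replicate 2 (1.58), nor without the moderation of the variance in limma (unadjusted p = 0.0659). Znrf3, the related ligase, had 0.466 and 0.171 FPKM in WT against 0.323 and 0.398 in CD274-null and was not tested.

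Tnks, tankyrase 1, which marks Axin for degradation (NCBI gene 21951, chromosome 8, 34829179 to 34965690), had 21.4 and 21.6 FPKM in WT against 11.7 and 6.59 in CD274-null. The WT libraries were nearly alike and CD274-null replicate 2 was lowest. The limma estimate was a log2 fold change of -1.24 (unadjusted p = 0.00710 and adjusted p = 0.272 from limma, with a standard error of 0.32). It was no candidate without WT replicate 1 (-1.25), WT replicate 2 (-1.24) or CD274-null replicate 2 (-0.86), nor without the trend (unadjusted p = 0.0126), the filter (0.0117) or the moderation of the variance (0.0855) in limma. Tnks2, the other tankyrase, had 28.8 and 33.2 FPKM in WT against 29.0 and 22.8 in CD274-null, and its groups overlapped.

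Pygo2, a coactivator that joins beta-catenin through Bcl9 (NCBI gene 68911, chromosome 3, 89430114 to 89435131), had 11.997 and 18.2 FPKM in WT against 31.5 and 29.3 in CD274-null. On the log2 scale the change was 1.01 (unadjusted p = 0.00862 and adjusted p = 0.274 from limma, with a standard error of 0.27). With the correction for GC content it was 0.82 and no longer a candidate, nor was it without WT replicate 1 (0.72) or without CD274-null replicate 1 (0.96) or 2 (1.07), nor without the trend (unadjusted p = 0.0173), the filter (0.0111) or the moderation (0.0756) in limma. The Dishevelled proteins carry the signal from the receptor to Axin. Dvl1 had 26.6 and 18.3 FPKM in WT against 34.1 and 39.6 in CD274-null (log2 fold change 0.72, adjusted p = 0.333 from limma), which was a candidate without WT replicate 1 (0.98) but not in the main comparison, and Dvl3 had 9.34 and 11.4 FPKM in WT against 11.6 and 9.39 in CD274-null (log2 fold change 0.01). Dvl2 had 3.39 and 4.68 FPKM in WT against 8.55 and 8.35 in CD274-null (log2 fold change 0.995, adjusted p = 0.295 from limma) and was a candidate with voom alone, and exons of Acadvl on the opposite strand overlap 18.3% of its exonic bases. Dact3, which binds Dishevelled, had 0.275 and 0.174 FPKM in WT against 2.20 and 1.17 in CD274-null. Both WT values of Dact3 are under 0.5 FPKM, so it passed the filter through the CD274-null libraries alone and its test is not given. None of the 4 tested genes of this group was a candidate in the main comparison. In the receptor group Lgr6, a receptor for R-spondins, had 2.004 and 2.09 against 0.811 and 0.416 FPKM (log2 fold change -1.22, adjusted p = 0.313 from limma) and was a candidate with voom and without the trend but not in the main comparison. Tbl1x, of the nuclear coactivator group, had 22.2 and 12.5 FPKM in WT against 7.66 and 7.42 in CD274-null. Its log2 fold change was -1.09 (adjusted p = 0.296 from limma), no candidate in the main comparison, and -1.49 without WT replicate 2.

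**Figure D4:**
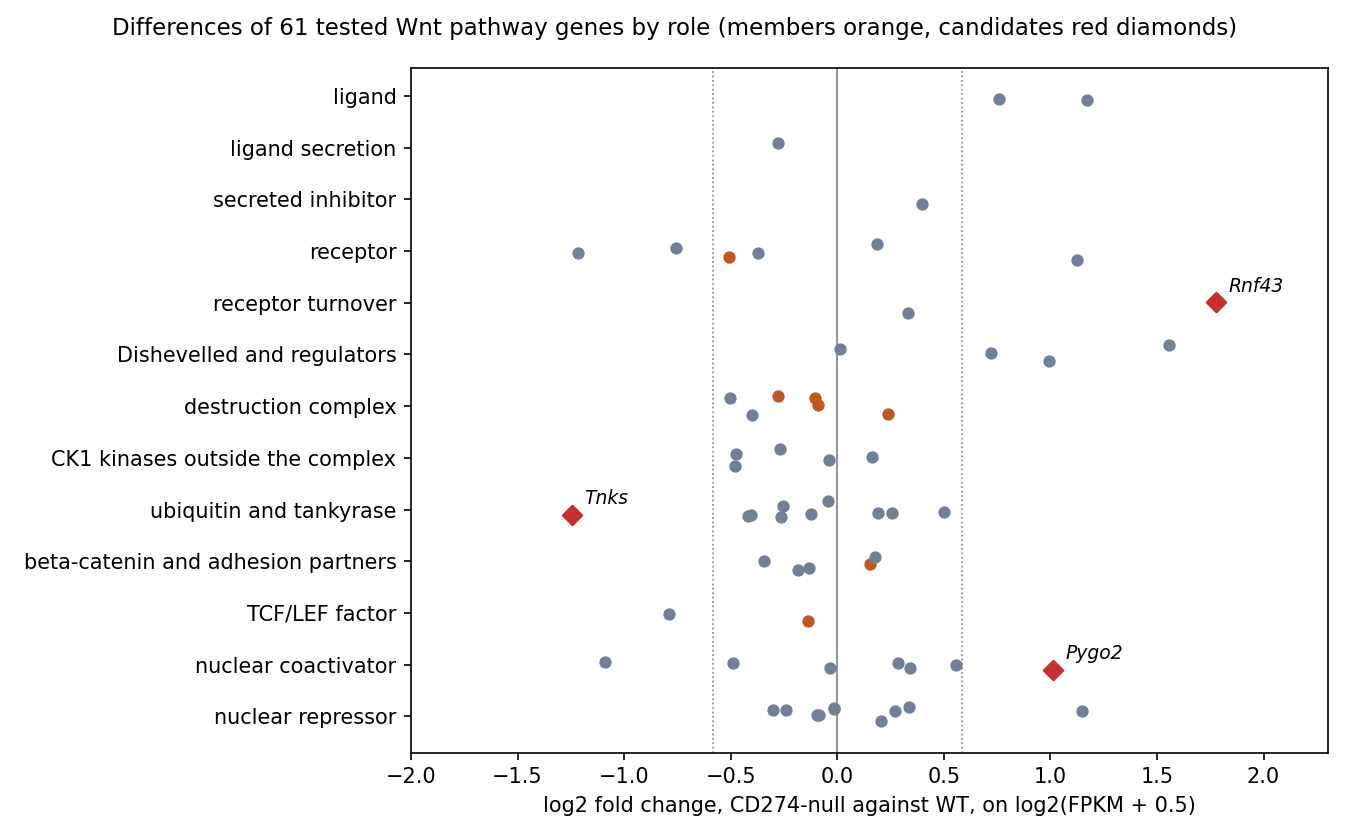
Log2 fold change of CD274-null against WT on log2(FPKM + 0.5) for the 61 tested Wnt pathway genes in rows by role, with members in orange, candidates as red diamonds and dotted lines at a fold change of 1.5. Rnf43 lies highest at 1.78 and Tnks lowest at -1.24.

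A list of 20 target genes of TCF/LEF factors, which includes Axin2, Lef1, Tcf7 and Rnf43, was examined next. Of these 13 were tested and 2 were candidates, Rnf43, which rose, and Ccnd1, which fell, where 3.63% of all tested genes were candidates. The groups did not overlap for 3 of the 13, where 47.3% of all tested genes do not overlap. The median log2 fold change of the 13 was -0.12. Ccnd1, which encodes Cyclin D1, had 3.85 and 7.79 FPKM in WT against 1.76 and 0.847 in CD274-null (log2 fold change -1.78 with a standard error of 0.47, adjusted p = 0.274 from limma). It was no candidate without WT replicate 2 (-1.32) or without CD274-null replicate 1 (-2.16) or 2 (-1.41), nor without the filter (unadjusted p = 0.0205), without the moderation of the variance (0.0959) or with the GC correction and replicate block together (0.0138), and exons of another gene on the opposite strand overlap 23.4% of its exonic bases. Myc, which is also under many other inputs, had 92.7 and 67.1 FPKM in WT against 94.7 and 114 in CD274-null (log2 fold change 0.40, adjusted p = 0.514 from limma). Of the targets most closely tied to this pathway, Nkd1 had 0.0969 and 0.110 FPKM in WT against 0.203 and 0.338 in CD274-null, with no overlap, from at most 15 recovered reads and under the filter. Sp5 had 0.0412 in WT replicate 1 and was listed at 0 elsewhere, and Lgr5 was listed at 0 in all 4 libraries. Jun and Id2 had the highest means over the 4 libraries among the targets, and Jun showed how far single libraries can differ, with 491 and 444 FPKM in WT against 127 and 650 in CD274-null.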

How the data were processed

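LICs of the MLL-AF9 model were profiled in 4 libraries (TruSeq v2, HiSeq2500). The authors aligned reads to GRCm38 with Tophat (version 2.0.12) and deposited FPKM values, 1 per gene and library; the counting program and strand setting are not given in the sources used here. Libraries were grouped by title. Symbols and coordinates came from the RefSeq annotation of GRCm38.p6, exon overlaps, lengths and GC content from GENCODE M21.

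Genes whose mean FPKM reached 0.5 were compared on log2(FPKM + 0.5) with limma 3.58.1 (lmFit, eBayes with trend, two-sided, Benjamini-Hochberg) in R 4.3.3, without covariates; this scale understates changes of low genes. Within a gene, FPKM values are multiples of what 1 read is worth, and reads were recovered for 17082 of 17083 genes above 0 in at least 2 libraries. Reads printed are lower bounds where the libraries share a factor. GC content was corrected per library by loess (span 0.3).

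Members and gene lists were chosen with earlier results of these data known. Named genes were the members, list candidates and the 2 most abundant genes of a role; others were chosen after their values were seen.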

Additional observations from a re-analysis of the deposited data

How the results depend on the processing

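Under 16 alternative settings no member was a candidate (lowest adjusted p = 0.355, limma), and no gene of the wider list passed adjustment (lowest adjusted p = 0.111). With 1 library left out, the lone library is assumed to vary like the other group. All candidates numbered 170 without moderation of the variance, and from 147 to 634 with 1 library left out, against 480. In the wider list, 1 gene was a candidate without moderation (Lgr4), 6 with voom, and from 1 to 3 with 1 library left out, against 3. Without the filter the 3 included Rnf43 and Fzd8, and without the trend Rnf43 and Lgr6. The third in each was Dact3, which is also among the 6 with voom. Dact3 reached a mean of 0.5 FPKM through the CD274-null libraries alone, so its calls are not used. Among TCF targets, 1 was a candidate with the GC correction and replicate block together, with a mean FPKM of at least 5 and with no filter, 0 without moderation, and from 0 to 2 with 1 library left out, against 2. Apc reversed to 0.0336 and Gsk3b to 0.0051 with the GC correction, with or without the replicate block. With 1 library left out, Apc ran from -0.21 to 0.00020, Gsk3b from -0.20 to 0.0181 and Tcf7 from -0.68 to 0.41. The causes of these shifts were not tested. The titles share replicate numbers, and the deviations of same-numbered libraries correlated at -0.02. With 2 libraries per group this value cannot decide whether the numbers pair the libraries. The replicate block gave 526 candidates in all and 0 among the members. A block with the numbers swapped in the CD274-null group gave 401 in all, against 480 without a block. With 2 libraries per group, the 95% intervals of the 7 tested members span about a log2 unit or more, and Axin2 and Lef1 rest on few reads.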
